A study of Mus musculus with 16 samples.

Results

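The change between 6 days and 2 weeks of nephrotoxic serum nephritis was examined in wild type mice, by setting the 2 arrays of glomerular extract from 2 weeks after serum against the 2 arrays from 6 days. These are 4 of the 16 arrays of the series, chosen by their titles alone. Both groups were female C57Bl/6 mice with wild type oestrogen receptor alpha, injected in the abdomen with 8 ul per g of sheep nephrotoxic serum, and each group held 2 mice. Different mice were taken at each time, so no mouse was followed from 6 days to 2 weeks. Untreated wild type mice (2 arrays) are given as the background. Mice of the same strain labelled as receptor knockouts (2 untreated, 2 at 6 days and 2 at 2 weeks) are given for comparison. Neither their knockout allele nor any age stands in the labels. From each mouse, cDNA was made from 10 ng of total RNA with a Pico kit and hybridised to 1 Affymetrix array. The comparison asks which transcripts kept moving, and which came back, once the nephritis was established.

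Nephrotoxic serum holds antibodies against the glomerular basement membrane. Bound antibody first activates complement and draws in neutrophils, and a later phase is carried by the host's own antibodies, T cells and macrophages, with crescents of parietal epithelial cells in severe disease. The proximal tubule, which reabsorbs filtered protein, glucose, amino acids and organic anions and burns fatty acids to do so, is commonly injured when the glomerular filter leaks.

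The deposited values are log2 values on 72688 probesets, of which 30142 genes had a probeset with exactly 1 symbol and were tested. Medians of the arrays ran from 5.57 to 5.90. Means above 16 occurred in 152 genes, higher than a plain log2 of a 16-bit scanner signal can be, and every difference is therefore stated in deposited log2 units and never as a fold. Values of different genes come from different probesets and are not compared with each other. Of podocyte genes, Nphs1, which encodes nephrin of the slit diaphragm, read 12.71 and 11.60 at 6 days and 12.06 and 13.23 at 2 weeks. No array of another tissue was used here, so these values do not check the label of glomerular tissue. Esr1, the gene of the receptor, was not lower in the arrays labelled knockout: it read 6.35 to 7.04 on the 6 wild type arrays and 7.29 to 7.61 on the 6 arrays labelled knockout. Which part of Esr1 the probeset reads, and which part the knockout removes, are not given, so this value does not check the labels. The 2 arrays of 18-hour replicate 2 went against their labels: Abcc3, at 8.52 or above on the 6 wild type arrays and 6.69 or below on the 6 labelled knockout, read 6.25 on the one labelled wild type and 12.93 on the one labelled knockout. Neither enters the fit of the 6 wild type arrays. The extracts also held tubule RNA, since the mean of 19 proximal tubule markers lay between 12.96 and 15.73 on the 6 wild type arrays used here.

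Between 6 days and 2 weeks, called rises included genes of epithelial injury, monocyte recruitment and antigen presentation, and called falls included genes of tubular transport, fatty acid oxidation, cholesterol synthesis and respiration. In the limma fit of the 6 wild type arrays, 613 of 30142 genes (2.03%) passed an adjusted p under 0.05. Of these, 215 were higher at 2 weeks (0.713%) and 398 were lower (1.32%). The rises include copies of the microRNA gene Mir669 with the same value on every array, so the calls are not all separate measurements. The median called rise was 1.14 and the median called fall was -1.42, against a median of 0.09 over all genes. Both 2-week arrays stood above both 6-day arrays in 9289 genes (30.8%) and below both in 6386 (21.2%), so arrays that do not overlap are common here and carry little weight for a single gene. The number of calls rests on very few arrays: without untreated replicate 1 or untreated replicate 2 it was 1 in each case, without 6-day replicate 1 or 6-day replicate 2 it was 0 in each case, and without 2-week replicate 1 it was 5702. It was 1504 without 2-week replicate 2 and 1113 with all 16 arrays in the fit, of which 620 were higher and 493 lower. That fit holds the 2 arrays of 18-hour replicate 2, which went against their labels in Abcc3. Without both it was 272, with 158 higher and 114 lower. Median centring gave 177 higher and 843 lower, and quantile normalization 38 and 41.

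Among called genes that could be named, Havcr1 led the 14 largest rises. Some numbered predicted genes rose further than the lowest of the 14 and are only counted. Havcr1 encodes kidney injury molecule 1, a phosphatidylserine receptor that injured proximal tubule cells put on their surface. Havcr1 read 6.03 and 6.06 in untreated mice, 6.83 and 9.19 at 6 days and 13.23 and 12.56 at 2 weeks. The 2-week arrays lay above both 6-day arrays, which themselves differed by more than 2 units. The difference was 4.88 ± 0.68 (SE, n = 2 and 2; limma adjusted p = 0.0320). Vcam1, the adhesion molecule that binds leukocyte integrins, read 6.77 and 6.72 untreated, 7.83 and 8.71 at 6 days and 10.36 and 11.13 at 2 weeks. Its groups did not overlap and it rose by 2.47 ± 0.34 (limma adjusted p = 0.0320). Serpina10, the inhibitor of activated factor X that uses protein Z, read 6.00 and 8.09 at 6 days and 11.01 and 10.29 at 2 weeks, a difference of 3.60 ± 0.63 (limma adjusted p = 0.0454).

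Chemokines that recruit monocytes and neutrophils were among the same 14. Ccl2, the ligand of the monocyte receptor Ccr2, read 6.39 and 6.48 untreated, 6.47 and 6.75 at 6 days and 8.36 and 8.95 at 2 weeks. The 6-day values lay near the untreated ones, and Ccl2 was higher by 2.05 ± 0.22 at 2 weeks (limma adjusted p = 0.0227). Cxcl2, a neutrophil chemokine, read 4.38 and 4.65 at 6 days and 6.04 and 7.34 at 2 weeks, with 4.55 and 4.53 in untreated mice. It rose by 2.18 ± 0.38 (limma adjusted p = 0.0452). Ubd, a ubiquitin-like protein induced by inflammatory cytokines, read 4.95 and 4.92 at 6 days and 6.32 and 7.57 at 2 weeks. The promoter of Cxcl2 is shown because a pair of stretches that match the letters of an NF-kappaB site, the element through which this gene is known to be induced, lie close together before its start. It is taken from RefSeq (build GRCm38.p6, chr5:90903649-90903948, plus strand) and runs from 250 bases before the transcription start to 50 after it, with the letters GGNNTTTCC, which cover most of the p65 type of site and were searched on both strands, in capitals.
Cxcl2: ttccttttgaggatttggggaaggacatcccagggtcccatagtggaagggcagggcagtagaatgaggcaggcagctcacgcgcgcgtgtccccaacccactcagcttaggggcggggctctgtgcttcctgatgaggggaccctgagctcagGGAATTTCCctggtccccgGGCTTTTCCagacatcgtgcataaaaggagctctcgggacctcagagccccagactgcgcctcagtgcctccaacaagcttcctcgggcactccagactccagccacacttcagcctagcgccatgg
The window holds 2 matches, both on the plus strand. This motif was present in 5.82% of all 32851 promoters of the same length. Counted by gene, with a match in any of its promoters, it was present in 20 of 262 nameable genes called lower (7.63%). Among those called higher it was present in 7 of 60 (11.7%). The share over all promoters is counted by promoter, so it is not on the same measure as those by gene. Csf1, Ubd, Cp and Runx1 were among the 7, named after the search. A match describes these letters and shows no binding.

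The other leading rises were of varied function. Cd44, the hyaluronan receptor carried by activated parietal epithelial cells and leukocytes, read 5.55 and 5.52 untreated, 5.94 and 6.23 at 6 days and 7.60 and 8.53 at 2 weeks. It rose by 1.98 ± 0.29 (limma adjusted p = 0.0352). Abca1, the exporter that loads cholesterol onto apolipoproteins, read 9.40 and 10.64 at 6 days, with a 2-week mean of 12.36, and showed a rise of 2.34 ± 0.42 (limma adjusted p = 0.0482). H2-Ab1, the beta chain of the class II molecule I-A, read 11.46 and 11.11 untreated, 11.49 and 11.98 at 6 days and 13.87 and 13.77 at 2 weeks. Its 2-week arrays agreed closely and the rise was 2.09 ± 0.25 (limma adjusted p = 0.0286). Sytl2, a synaptotagmin-like adaptor of vesicle transport, rose by 2.35 ± 0.20, and Scin, the actin-severing protein adseverin, by 1.88 ± 0.24. Smpdl3b, a lipid-modifying phosphodiesterase of the cell surface, rose by 2.22 ± 0.23. Spaca7, known from the acrosome of sperm, read 4.74 and 4.76 at 6 days and 7.10 and 7.73 at 2 weeks. D17H6S56E-5 completed the 14 with a rise of 2.35 ± 0.29.

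**Figure D1:**
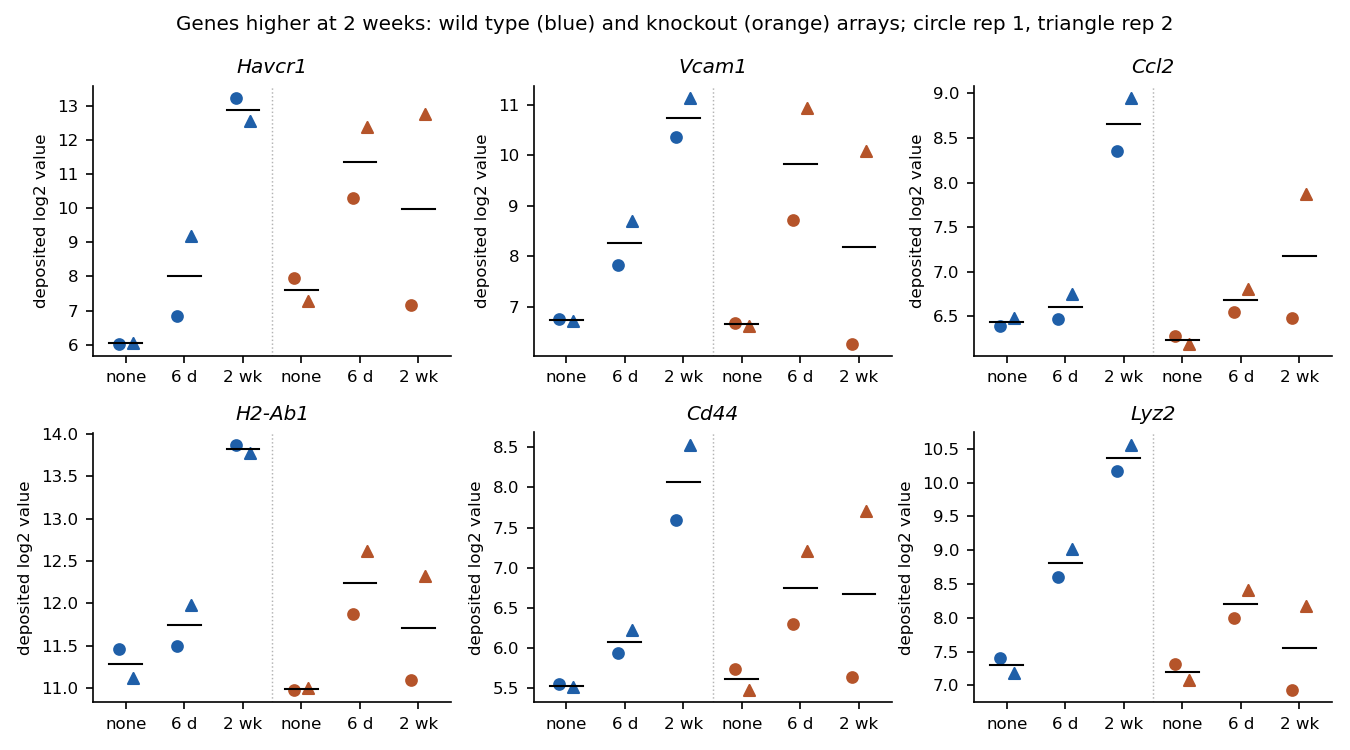
Deposited log2 values of 6 genes that were higher at 2 weeks than at 6 days in wild type mice, on every untreated, 6-day and 2-week array; blue marks are wild type and orange marks are knockout arrays, circles are replicate 1, triangles replicate 2, and the line is the group mean of 2. In wild type both 2-week arrays stand above both 6-day arrays in each panel, while the 2 knockout arrays of 2 weeks lie far apart for Havcr1, at 7.17 and 12.77.

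In the fit of 6 arrays most calls were falls, and the 12 largest among nameable genes follow. Slc22a7, which encodes the organic anion transporter OAT2, read 13.28 and 12.31 untreated, 13.65 and 12.79 at 6 days and 6.71 and 7.75 at 2 weeks. All 4 earlier arrays stood far above both 2-week arrays, and the difference was -5.99 ± 0.48 (limma adjusted p = 0.0196). Akr1c18, the 20-alpha-hydroxysteroid dehydrogenase that inactivates progesterone, read 13.73 and 12.85 at 6 days and 6.61 and 8.10 at 2 weeks, after 13.86 and 13.18 untreated. It fell by 5.94 ± 0.53 (limma adjusted p = 0.0197). Abcc3, an exporter of conjugated organic anions, read 12.85 and 12.29 untreated, 13.86 and 12.52 at 6 days and 8.52 and 8.77 at 2 weeks. It fell by 4.55 ± 0.43 (limma adjusted p = 0.0210).

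Mfsd2a, a carrier of lysophosphatidylcholine that bears docosahexaenoic acid, read 10.84 and 11.05 untreated, 12.36 and 11.68 at 6 days and 6.40 and 7.88 at 2 weeks. Its difference was -4.88 ± 0.47 (limma adjusted p = 0.0210). Ace, the angiotensin-converting enzyme, read 14.06 and 12.87 untreated, 14.40 and 14.11 at 6 days and 9.53 and 11.16 at 2 weeks, a difference of -3.91 ± 0.58 (limma adjusted p = 0.0356). The 6-day values of both genes were at or above the untreated range, so neither was low before 2 weeks. Mep1b, the beta subunit of the brush border protease meprin, fell by 3.76 ± 0.50. Cyp2a4, a steroid hydroxylase, fell by 4.67 ± 0.72, and C8a, a chain of the terminal complement component C8, by 4.41 ± 0.71.

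Slc22a19 and Slc22a26, both of the organic anion transporter family, fell by 4.83 ± 0.76 and 4.36 ± 0.71. These family members are close in sequence, and their probesets could share signal. Rnf24, a membrane protein with a RING domain, fell by 3.55 ± 0.59. Aadat, the aminotransferase of kynurenine and 2-aminoadipate in mitochondria, read 17.23 and 17.20 at 6 days and 13.25 and 14.39 at 2 weeks, a difference of -3.40 ± 0.45 (limma adjusted p = 0.0310). Its promoter is shown as a member of the falling set whose window holds the letters of a site of HNF4, a nuclear receptor of proximal tubule and liver. It is from RefSeq (GRCm38.p6, chr8:60505874-60506173, plus strand), with the match to CAAAGTCCA, read from the minus strand, in capitals.
Aadat: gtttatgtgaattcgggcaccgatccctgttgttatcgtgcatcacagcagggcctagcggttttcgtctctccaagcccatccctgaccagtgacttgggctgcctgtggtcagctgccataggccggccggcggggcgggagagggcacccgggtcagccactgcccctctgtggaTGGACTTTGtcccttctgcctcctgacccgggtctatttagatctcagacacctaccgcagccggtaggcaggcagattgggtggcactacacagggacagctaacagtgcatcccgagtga
The motif stood in 0.475% of all promoters. Counted by gene, it stood in 3 of 262 nameable genes called lower (1.15%: Aadat, Abcd3 and Treh) and in 0 of 60 called higher. It marked few members of either set, and shares by gene and by promoter are not on the same measure.

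**Figure D2:**
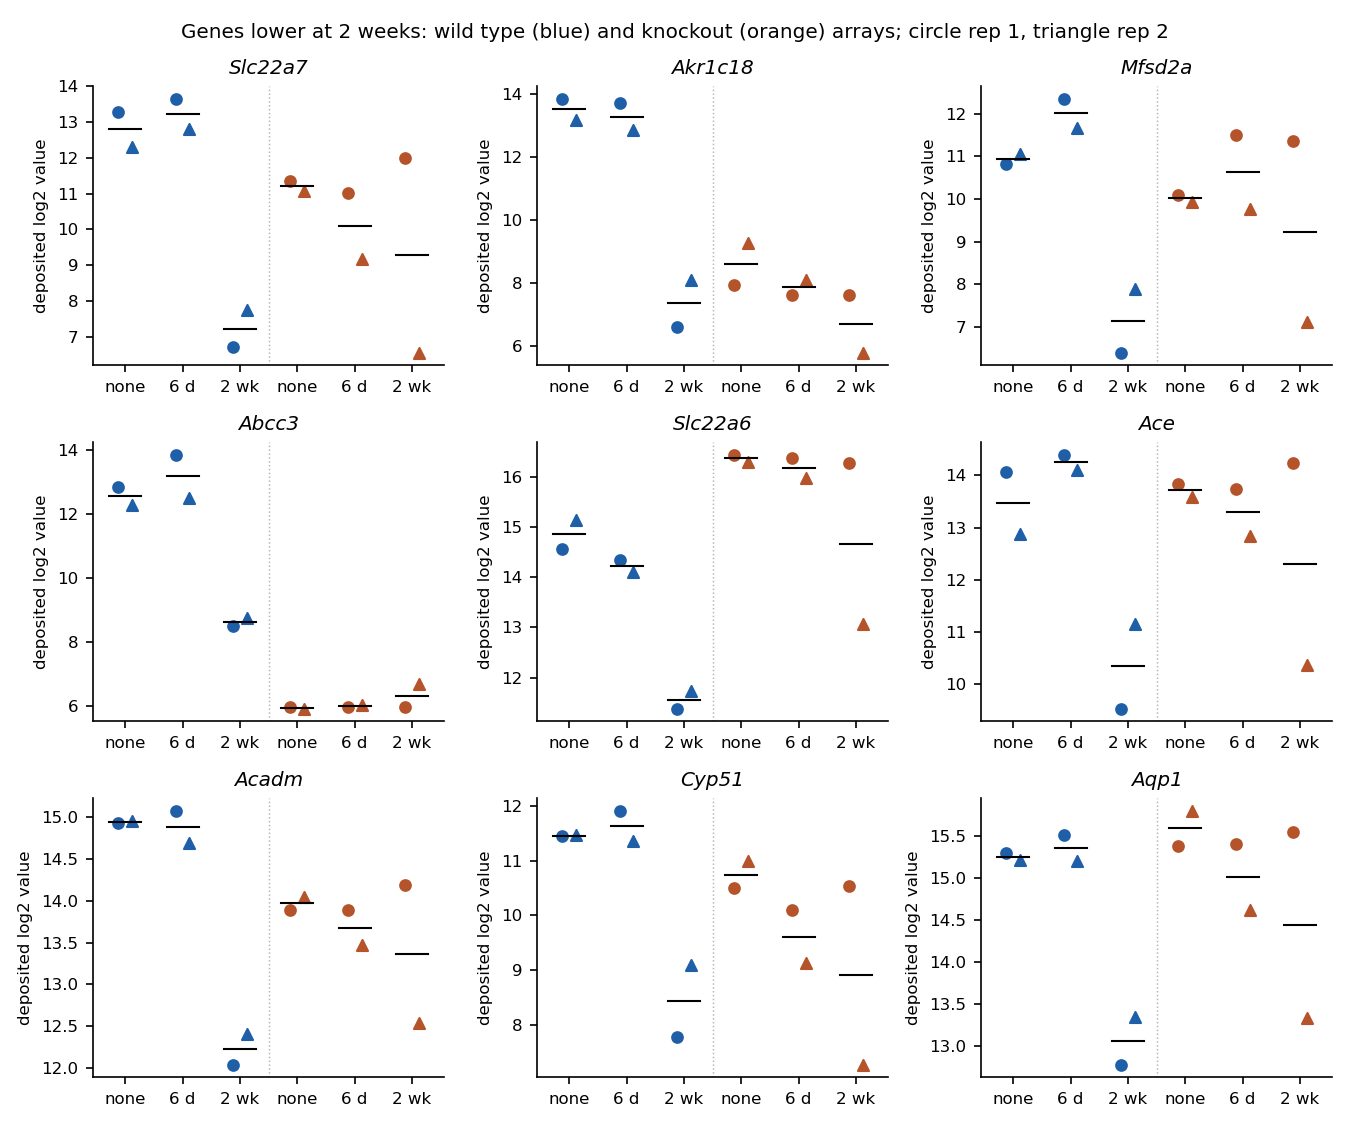
Deposited log2 values of 9 genes that were lower at 2 weeks than at 6 days in wild type mice, on every untreated, 6-day and 2-week array, with wild type in blue and knockout in orange, replicate 1 as circles, replicate 2 as triangles and group means as lines. The 6-day wild type values stay near the untreated ones for most panels and the 2-week values lie below all 4 of them, as for Slc22a7 at 6.71 and 7.75.

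Gene lists describe how far these changes ran through each pathway. They are given as counts and a median difference beside the median of 0.09 over all genes. With dim genes left out, the median over the remaining 16055 genes was -0.06. Of all genes 0.713% were called higher and 1.32% lower, so a short list without a call says little. Among organic anion and cation carriers 8 of 22 measured genes fell and none rose (median -1.39). Beside those already named they were Slc22a13, Slc22a12 (the urate carrier URAT1), Slc22a6 (OAT1), Slc22a2 (the cation carrier OCT2) and Slco1a6. Slc22a6 read 14.57 and 15.14 untreated, 14.34 and 14.11 at 6 days and 11.38 and 11.73 at 2 weeks, a difference of -2.66 ± 0.29. Of 22 amino acid carriers 3 fell. Slc7a12 differed by -2.44 ± 0.32, the glutamine carrier Slc38a3 by -2.19 ± 0.27 and the glutamate carrier Slc1a1 by -1.90 ± 0.28. Among 17 genes of glucose synthesis and transport, Slc5a8 and Slc5a1 fell, with differences of -2.22 and -1.47. Slc5a8 carries lactate and short fatty acids, and Slc5a1 is the glucose carrier SGLT1. Pck1, the gluconeogenic carboxykinase, read 14.04 and 14.29 at 6 days and 10.54 and 12.93 at 2 weeks and did not pass (limma adjusted p = 0.112).

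Mitochondrial and lipid genes were also among the falls. In the respiratory chain 5 of 27 genes fell (Cox5b, Ndufa2, Sdhd, Ndufv1 and Ndufa5), all 27 differences were below 0, and the median was -1.33. All 13 measured cytoplasmic ribosomal protein genes also differed below 0, with a median of -0.18, and none passed. A shared sign alone therefore does not set the respiratory list apart. Cox5b, a subunit of cytochrome c oxidase, read 15.50 and 15.91 untreated, 15.36 and 15.67 at 6 days and 13.72 and 13.61 at 2 weeks. In fatty acid oxidation 2 of 22 passed, Acadm and Eci1, both as falls, and both 2-week arrays were below both 6-day arrays in 21 of 22 genes, against 21.2% of all genes. Acadm, the medium-chain acyl-CoA dehydrogenase, read 14.93 and 14.95 untreated, 15.08 and 14.69 at 6 days and 12.04 and 12.41 at 2 weeks, a difference of -2.65 ± 0.27 (limma adjusted p = 0.0213). Among 13 targets of PPAR, the lipid-sensing nuclear receptors, Cd36 alone passed, falling by 2.14 ± 0.26. It encodes a fatty acid uptake receptor and read 12.08 and 11.43 at 6 days and 9.55 and 9.70 at 2 weeks.

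Genes that make lipids fell in part. Of 17 genes of cholesterol synthesis and uptake 5 fell (Cyp51, Hmgcs1, Sqle, Hsd17b7 and Srebf2) and none rose, with a median of -0.71. Cyp51, the lanosterol demethylase, read 11.45 and 11.46 untreated, 11.91 and 11.35 at 6 days and 7.78 and 9.08 at 2 weeks, a difference of -3.20 ± 0.41 (limma adjusted p = 0.0303). Hmgcs1, the cytosolic HMG-CoA synthase, read 11.89 and 11.89 at 6 days and 9.92 and 10.59 at 2 weeks. Srebf2, the transcription factor that drives this pathway, differed by -0.97. Among 19 genes of fatty acid and triglyceride synthesis Elovl6, Me1 and Lpin1 fell, and Elovl6, the elongase of palmitate, read 11.26 and 11.60 at 6 days and 9.39 and 9.55 at 2 weeks. Scd1, the stearoyl-CoA desaturase, had a mean of 14.20 at 6 days and read 10.97 and 12.62 at 2 weeks, and did not pass (limma adjusted p = 0.0651). In the list of cholesterol efflux and lipoprotein genes the calls went both ways. Abca1 rose, while Lpl, the lipoprotein lipase, fell by 2.76 ± 0.46 and Ch25h, the cholesterol 25-hydroxylase, by 1.01 ± 0.13. This list's median was -0.15, and 0.06 after quantile normalization.

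Kidney genes known to differ between the sexes were prominent among the falls. Of 6 genes listed as biased to females 4 fell (Akr1c18, Cyp2a4, Abcc3 and Slc7a12), with a median of -3.50. Cyp2a4 stood apart from the rest of these in untreated mice. It read 17.25 and 17.37 in those labelled knockout and 17.13 and 15.84 in wild type, while Akr1c18, Abcc3 and Slc7a12 were lower in the knockout. Of 15 biased to males 1 fell and none rose: Kap, the androgen-regulated protein of the proximal tubule, read 19.67 and 19.46 at 6 days and 15.68 and 16.90 at 2 weeks. The male-biased Cyp2j13 read 8.20 and 7.76 at 6 days and 10.10 and 10.10 at 2 weeks, a difference of 2.12 that did not pass (limma adjusted p = 0.0638). In the list of phosphate and vitamin D genes Cyp27b1 rose and S100g fell. Cyp27b1, the enzyme that makes active vitamin D, read 6.47 and 6.36 at 6 days and 7.47 and 7.86 at 2 weeks (limma adjusted p = 0.0356), and S100g, the calcium buffer calbindin-D9k, read 9.76 and 9.78 and then 8.55 and 8.18 (limma adjusted p = 0.0318).

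Markers of the tubule were also lower in median. Their lists share members with those above, among them Slc22a6 and Pck1, so they are not separate evidence. The mean of the 19 proximal tubule markers was 15.23 and 15.73 on the untreated arrays, 15.04 and 14.89 at 6 days and 12.96 and 14.05 at 2 weeks. All 19 differences were below 0, a sign shared by the ribosomal protein genes above. Slc22a6 and Aqp1 passed, and the median was -1.32. Aqp1, the water channel of proximal tubule and descending limb, read 15.50 and 15.20 at 6 days and 12.78 and 13.35 at 2 weeks. Of 17 markers of distal nephron and collecting duct Slc4a1 and Kcnj1 fell, and the median was -1.06. Their means were 11.17 and 11.32 at 6 days and 11.12 and 9.93 at 2 weeks. Both 2-week arrays were below both 6-day arrays in 11 of 17 (21.2% of all genes), while Aqp2, the water channel of the collecting duct named after its values were seen, read 10.97 and 12.19 at 6 days and 13.88 and 9.86 at 2 weeks. Fewer tubule cells in an extract and less of these RNAs per tubule cell cannot be told apart, and the part of tubule content in the falls was not tested.

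**Figure D3:**
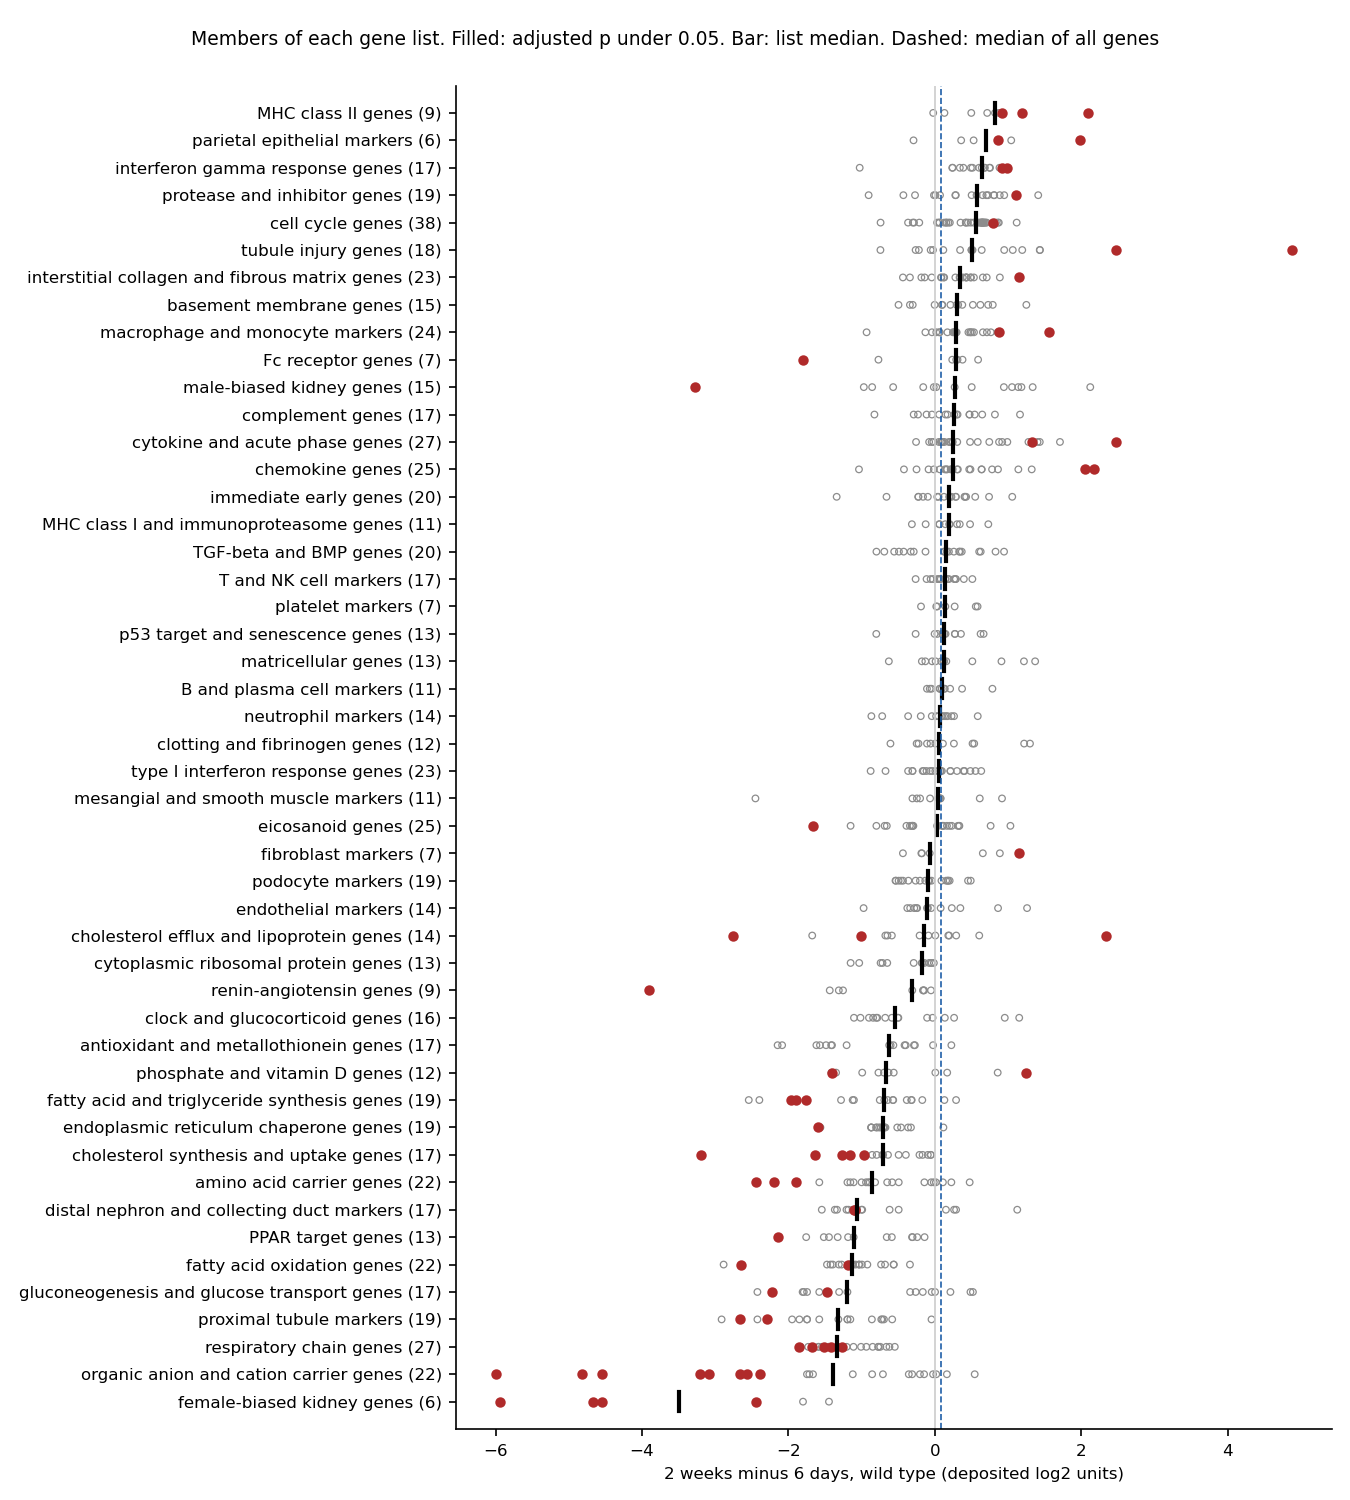
Difference between 2 weeks and 6 days in wild type mice, in deposited log2 units, for each measured member of the gene lists with at least 5 measured genes; filled points passed an adjusted p under 0.05, bars are list medians, the dashed line is the median of all genes (0.09) and the number measured stands after each name. Female-biased, carrier, respiratory, fatty acid oxidation and proximal tubule lists lie at the low end, and MHC class II, parietal epithelial and interferon gamma lists at the high end.

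Glomerular cell markers did not move as one. As 2.03% of all genes passed, the absence of calls in the short lists here says little. Of 19 podocyte markers none passed, and the median was -0.09 (0.26 after quantile normalization). Of 14 endothelial markers none passed (median -0.10, and 0.12 after quantile normalization), although Kdr, the receptor of vascular endothelial growth factor, read 12.01 and 10.67 at 6 days and 11.77 and 13.43 at 2 weeks. Of 11 mesangial and smooth muscle markers none passed (median 0.05, and -0.11 after median centring). Tagln, the actin-binding protein of contractile cells, read 8.87 and 8.22 untreated, 11.57 and 13.17 at 6 days and 10.16 and 9.68 at 2 weeks. Its 2-week values lay between the untreated and 6-day ones, and the difference of -2.45 ± 0.51 did not pass (limma adjusted p = 0.0619). Of 6 parietal epithelial markers Cd44 and Ncam1 rose, the median was 0.69, and the marker mean was 8.08 and 8.38 at 6 days and at least 8.96 on both 2-week arrays.

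Monocyte and macrophage genes rose in part. Of 24 markers Lyz2 and Ccr2 passed, both higher, 21 differences were above 0, and both 2-week arrays were above both 6-day arrays in 15 of 24, against 30.8% of all genes. Lyz2, the lysozyme of macrophages and neutrophils, read 7.41 and 7.19 untreated, 8.60 and 9.02 at 6 days and 10.17 and 10.56 at 2 weeks, a rise of 1.55 ± 0.22 (limma adjusted p = 0.0320). Ccr2 read 5.96 and 5.88 at 6 days and 6.72 and 6.87 at 2 weeks. Csf1r, the receptor for the macrophage growth factor, read 9.35 and 9.41 at 6 days and 8.53 and 8.37 at 2 weeks, the opposite way, without passing (limma adjusted p = 0.131). Its ligand Csf1 passed among 27 cytokine and acute phase genes, of which Vcam1 was the other, with 5.88 and 5.80 as the list means untreated, 6.17 and 6.51 at 6 days and 6.89 and 6.94 at 2 weeks. Csf1 differed by 1.32, and Il34, the second ligand of Csf1r, read 7.24 and 8.46 at 6 days and 9.61 and 9.51 at 2 weeks without passing (limma adjusted p = 0.0621).

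The MHC class II genes rose in part. Of 9 MHC class II genes H2-Ab1, H2-Eb1 and Ciita rose, and the median was 0.82. Ciita, the coactivator that switches on class II genes, read 5.72 and 5.60 untreated, 5.71 and 5.72 at 6 days and 6.72 and 6.56 at 2 weeks, a rise of 0.92 ± 0.13 (limma adjusted p = 0.0345). H2-Eb1, the beta chain of I-E, read 8.86 and 9.11 at 6 days and 10.42 and 9.92 at 2 weeks. H2-Aa, the alpha chain of I-A, differed by 0.72 without passing. Of 11 MHC class I and immunoproteasome genes none passed, and the median was 0.20. Since 2.03% of all genes passed, no call among 11 says little. The difference between the lists was not tested. The promoters of H2-Eb1 and H2-Aa are shown because both hold the Y box, the CCAAT-type element of class II promoters bound by NF-Y, at similar distances before the start. They are from RefSeq (GRCm38.p6, chr17:34305617-34305916 on the plus strand and chr17:34287774-34288073 on the minus strand), with the match to CTGATTGG in capitals.
H2-Eb1: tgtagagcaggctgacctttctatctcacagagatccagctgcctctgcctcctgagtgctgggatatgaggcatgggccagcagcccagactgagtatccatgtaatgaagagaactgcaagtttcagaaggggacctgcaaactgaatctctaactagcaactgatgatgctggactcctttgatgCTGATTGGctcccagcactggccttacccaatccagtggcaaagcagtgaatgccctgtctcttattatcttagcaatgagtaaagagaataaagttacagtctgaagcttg
H2-Aa: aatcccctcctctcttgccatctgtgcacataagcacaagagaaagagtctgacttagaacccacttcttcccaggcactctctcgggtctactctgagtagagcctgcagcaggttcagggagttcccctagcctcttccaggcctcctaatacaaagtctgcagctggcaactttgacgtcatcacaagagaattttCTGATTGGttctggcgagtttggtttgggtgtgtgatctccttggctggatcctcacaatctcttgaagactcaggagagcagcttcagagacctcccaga
Of the 9 class II genes 7 had a promoter in the table, and 3 of these 7 held the motif: H2-Aa, H2-Eb1 and H2-Oa. H2-Ab1, the largest class II rise, and Ciita were not among the matches. Whether they were among the 7 searched is not given here, so no absence of the motif can be read for either. The motif stood in 4.1% of all promoters, a share by promoter and not by gene. The match lies 55 to 62 bases before the start in H2-Eb1 and 44 to 51 in H2-Aa.

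Interferon gamma response genes also rose in part. Of 17, Irf1 and Ciita rose, 16 differences were above 0, and the median was 0.64. Irf1, the transcription factor induced by interferon gamma, read 6.40 and 6.34 untreated, 6.45 and 6.52 at 6 days and 7.56 and 7.39 at 2 weeks, a rise of 0.99 ± 0.14 (limma adjusted p = 0.0318). Both Irf1 and Ciita therefore stood near their untreated values at 6 days. Of 23 type I interferon response genes none passed and the median was 0.05 (-0.10 after median centring). Ifi27l2a, one of them, read 4.92 and 4.89 untreated, 6.20 and 6.07 at 6 days and 5.56 and 5.37 at 2 weeks, without passing (limma adjusted p = 0.0579).

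Markers of neutrophils, T and NK cells, B cells and platelets gave no calls among 14, 17, 11 and 7 measured genes. Their medians were 0.08, 0.14, 0.09 and 0.14, which are close to that of all genes. With 2.03% of all genes called, the absence of calls in such short lists says little. S100a8 and S100a9, the calprotectin subunits of neutrophils, read 4.83 and 5.27 and 6.68 and 7.50 at 6 days. At 2 weeks they read 4.42 and 4.25 and 6.20 and 6.25, and neither difference passed (limma adjusted p = 0.0898 and 0.118). The T and NK list had means of 4.95 and 4.86 at 6 days and 4.87 and 5.19 at 2 weeks. Of the erythroid list only Alas2, the haem synthesis enzyme of red cell precursors, was measured, and it fell from 8.56 and 8.48 to 6.56 and 6.06. Among Fc receptor genes Fcgrt, the neonatal receptor that recycles IgG and albumin and is strong in proximal tubule and podocytes, fell by 1.81 ± 0.32, and the inhibitory Fcgr2b did not pass (limma adjusted p = 0.0681).

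**Figure D4:**
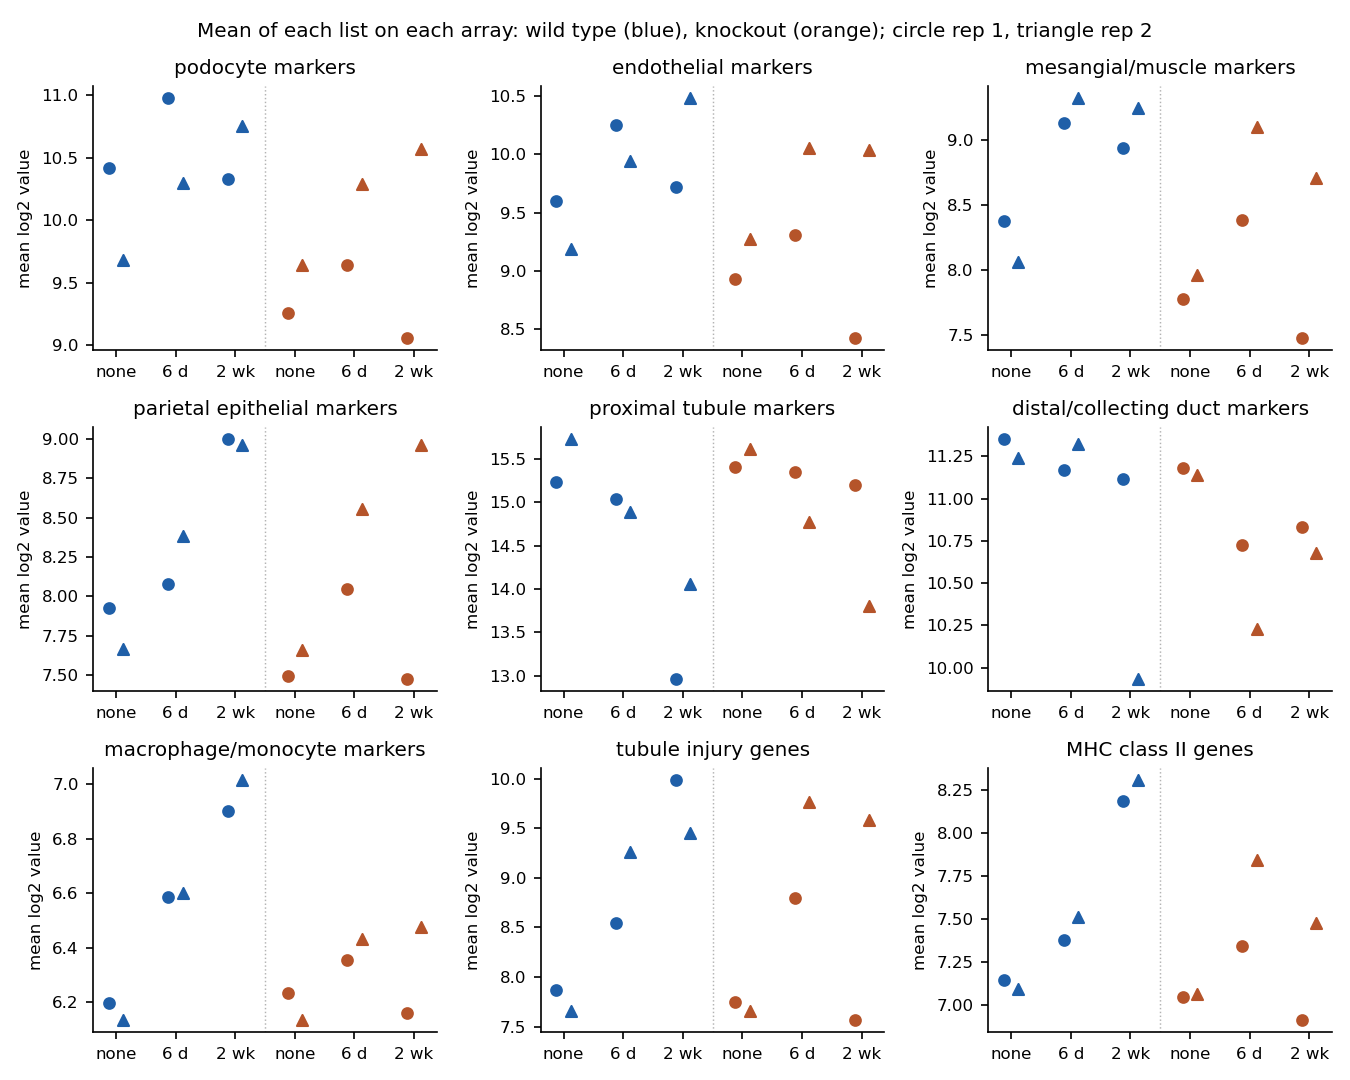
Mean deposited log2 value of the measured members of 9 gene lists on each untreated, 6-day and 2-week array; wild type is blue, knockout orange, replicate 1 a circle and replicate 2 a triangle. In wild type the proximal tubule mean falls from 15.04 and 14.89 at 6 days to 12.96 and 14.05 at 2 weeks, and podocyte means overlap between the times.

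Injury and matrix genes changed in a few members each. Of 18 tubule injury genes Havcr1 and Vcam1 passed, and the median was 0.51. Krt20, a keratin of injured tubule, read 5.60 and 6.26 at 6 days and 7.22 and 7.50 at 2 weeks and just missed the threshold (limma adjusted p = 0.0533). Lcn2, the siderophore-binding lipocalin, read 5.33 and 6.88 at 6 days and 8.77 and 6.30 at 2 weeks, so its groups overlapped. Of 23 genes of interstitial collagen and fibrous matrix Col1a1 alone passed. It encodes the alpha 1 chain of collagen I and read 6.36 and 6.77 untreated, 6.65 and 6.66 at 6 days and 7.76 and 7.86 at 2 weeks, a rise of 1.15 ± 0.17 (limma adjusted p = 0.0351). Col1a2 and Col3a1 differed by 0.89 and 0.66 without passing. None of 15 basement membrane genes passed (median 0.30), nor any of 13 matricellular genes, where Fn1, fibronectin, read 10.53 and 10.23 at 6 days and 12.27 and 11.23 at 2 weeks. Among 19 proteases and their inhibitors Mmp7, the metalloproteinase matrilysin, rose by 1.11 ± 0.19 from 4.32 and 4.38 to 5.20 and 5.71.

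Cell cycle genes, which are raised when glomerular or tubular cells divide, gave 1 rise among 38, Cenpf, a kinetochore protein. Both 2-week arrays were above both 6-day arrays in 24 of 38, against 30.8% of all genes, and the median was 0.56. Mki67, the proliferation antigen, read 6.17 and 6.78 untreated, 8.48 and 9.26 at 6 days and 9.68 and 10.30 at 2 weeks without passing (limma adjusted p = 0.130). Of 19 endoplasmic reticulum chaperone genes Dnajc3, an inhibitor of stress kinases, fell by 1.59 ± 0.16, and in 18 of 19 both 2-week arrays were below both 6-day arrays, against 21.2% of all genes. Dnajc3 read 11.10 and 11.08 untreated, 11.22 and 11.27 at 6 days and 9.65 and 9.65 at 2 weeks (limma adjusted p = 0.0213). No gene of the antioxidant list passed among 17, although Cat, the peroxisomal catalase, read 15.07 and 15.17 and then 12.52 and 13.42 (limma adjusted p = 0.0511).

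Ch25h and Nr4a1 stood away from the untreated values at 6 days and nearer to them at 2 weeks. The means of Fgg and Cxcl13 were farther from the untreated means at 2 weeks than at 6 days. These examples were picked after their values were seen. Ch25h read 4.17 and 4.29 untreated, 5.73 and 5.74 at 6 days and 4.67 and 4.79 at 2 weeks (limma adjusted p = 0.0292 for 2 weeks against 6 days). Nr4a1, an immediate early nuclear receptor, read 6.70 and 6.19, then 8.91 and 10.38, then 8.20 and 8.40, without passing between the later times (limma adjusted p = 0.150). Among 12 clotting and fibrinogen genes none passed, and Fgg, the gamma chain of fibrinogen, read 9.33 and 13.65 at 6 days and 12.45 and 11.61 at 2 weeks, so the 6-day mice spanned both 2-week mice. Cxcl13, the B cell chemokine, read 10.48 and 9.41 at 6 days and 8.98 and 13.18 at 2 weeks, and its value at 2 weeks was set by a single mouse.

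In the mice labelled knockout the same interval gave no calls (limma, smallest adjusted p = 0.484, with 2295 genes at an unadjusted p under 0.05). The 2 knockout arrays of 2 weeks stood apart: they differed by more than 2 units in 556 genes, against 112 for the wild type arrays of 2 weeks and 13 for those of 6 days. The genes called in wild type are described in each knockout array against the knockout 6-day mean. The 215 rises had a median of 0.07 in knockout replicate 1, with 52.1% above 0, and of 0.54 in replicate 2, with 92.6% above 0. Over all genes 58.8% and 50.4% were above 0. The 398 falls had a median of 0.26 in replicate 1, with 26.4% below 0, and of -0.95 in replicate 2, with 92.7% below 0. Replicate 2 therefore went the same way as wild type for most called genes and replicate 1 did not. Havcr1 showed this in single values, with 7.95 and 7.28 in untreated knockout mice, 10.31 and 12.39 at 6 days and 7.17 and 12.77 at 2 weeks. The mean of the tubule injury genes was 7.75 and 7.65 untreated, 8.80 and 9.77 at 6 days and 7.56 and 9.58 at 2 weeks. Replicate 1 thus lay near the untreated knockout arrays in these values. For the complement gene C4b the 2 replicates lay close together. It read 6.96 and 7.30 untreated, 9.87 and 10.52 at 6 days and 8.03 and 8.17 at 2 weeks, between the untreated and 6-day values. Why replicate 1 stood apart was not tested. The proximal tubule markers had medians of 0.26 in replicate 1 and -1.31 in replicate 2. Some falls started lower in the knockout. The mean of the 6 female-biased genes was 9.97 and 10.67 in untreated knockout mice, against 14.67 and 14.21 in wild type. The mean of the 15 male-biased genes was 15.54 and 14.82, against 9.47 and 8.80. Other falls started level, such as Mep1b, at 13.64 and 13.79 against 13.37 and 13.22.

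**Figure D5:**
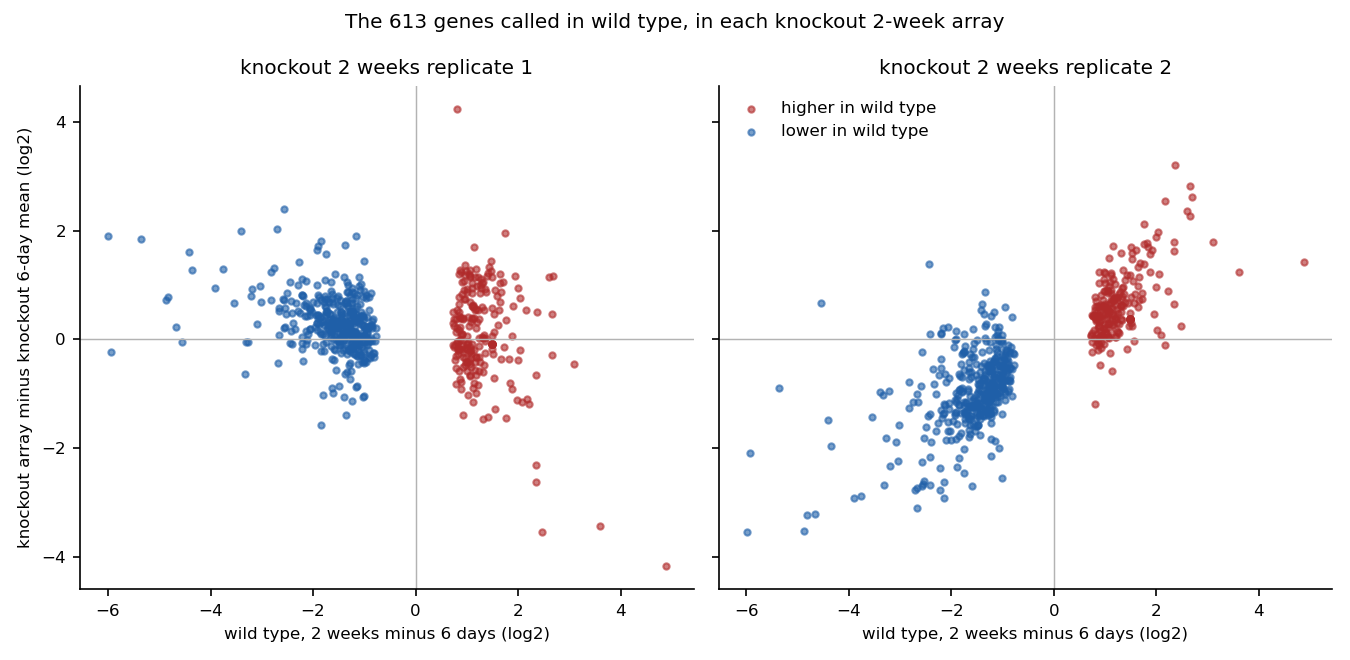
The 613 genes called between 2 weeks and 6 days in wild type, with the wild type difference on the horizontal axis and, on the vertical axis, the value on each knockout 2-week array minus the mean of the knockout 6-day arrays, both in deposited log2 units; red genes were higher and blue genes lower in wild type. On knockout replicate 2, 92.7% of the blue genes lie below 0, and on replicate 1 26.4% do.

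Whether the change differed between genotypes was tested as an interaction over 12 arrays, and 1 gene of 30142 passed (0.00332%). Slc17a2, of the sodium-phosphate cotransporter family, read 7.80 and 7.59 at 6 days and 5.41 and 5.57 at 2 weeks in wild type. In the mice labelled knockout it read 4.55 and 4.42 at 6 days and 4.54 and 4.59 at 2 weeks. The wild type change minus the knockout change was -2.29 ± 0.18 (limma adjusted p = 0.0120). Untreated mice labelled knockout were already at 4.59 and 4.42, against 7.66 and 7.47 in wild type, so the genotypes differed in this gene before serum. On every knockout array in the fit Slc17a2 lay below the lowest array median of 5.57, which left little room to fall. Abcc3 read 5.98 and 6.05 and then 5.96 and 6.69 in the knockout, with a difference of changes of -4.86 that did not pass (limma adjusted p = 0.0761). The count was 1034 without knockout 2-week replicate 2 and 364 without wild type 2-week replicate 1, so it turns on single mice. Esr1 read 6.70 and 7.01 at 6 days and 6.68 and 6.35 at 2 weeks in wild type and did not pass (limma adjusted p = 0.310).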

How the data were processed

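The submitters' processing notes name Transcriptome Analysis Console and Affymetrix Expression Console. No version, summarisation method or annotation build is given in the sources used here. The authors deposited log2 values, 1 column per array, which were used as deposited. Probesets with exactly 1 symbol (30604) were kept, those with several (2146) or none (39938) were not used, and for 355 genes with several probesets that with the highest mean over 16 arrays was taken. Entrez identifiers gave 827 probesets a newer symbol. No filter on brightness was applied.

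The 6 wild type arrays of untreated, 6-day and 2-week mice were fitted with a mean per group in limma 3.58.1 (R 4.3.3), with eBayes and an intensity trend (3 residual and 3.84 prior degrees of freedom), so the spread of 2 mice per group is shared by all 3 groups. Benjamini-Hochberg adjustment ran over 30142 genes, and errors after ± are moderated standard errors. The interaction used 12 arrays. The procedure was tested on simulated data.

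The comparison and the gene lists were chosen with earlier results of these data known. Named genes are those with the 14 highest and 12 lowest differences among called genes open to naming, the 4 members of each list that differed most (fewer in short lists), Esr1, Havcr1 and the leading genes of the other tests. Other called list members and promoter matches, and H2-Aa, Col3a1 and Abcc3 in the interaction, were named after their values were seen. Predicted transcripts with numbers, small RNAs, receptor families and antigen receptor segments were only counted, except as stated: 130 of the 215 rises and 80 of the 398 falls. Same-numbered arrays did not deviate together (correlations of -0.06, 0.15 and -0.10 between times), so replicate numbers were not taken as pairs. Alternatives changed the arrays fitted, the brightness filter, the probeset rule, the normalization and the moderation, weighted arrays, added a replicate term or left out each array.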

Additional observations from a re-analysis of the deposited data

Results flagged for a closer look

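The fall of Slc17a2 between 6 days and 2 weeks differed between wild type and knockout by the interaction test (-2.29, limma adjusted p = 0.0120), with wild type values of 7.80, 7.59, 5.41 and 5.57 and knockout values of 4.55, 4.42, 4.54 and 4.59. Untreated mice read 7.66 and 7.47 in wild type and 4.59 and 4.42 in those labelled knockout, so the genotypes differed in this gene before serum. All these knockout values lay below the lowest array median of 5.57, which left little room to fall.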

How the results depend on the processing

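The fits with 16 and 8 arrays include 18-hour replicate 2 arrays that went against their genotype labels. The number of genes called between 2 weeks and 6 days in wild type, 613, was 1113 with all 16 arrays, 927 with all 8 wild type arrays, 272 with 12 arrays and 272 with 14, 2795 with 13 (without both 18-hour replicate 2 arrays and knockout 2-week replicate 1), and 1 with the 4 arrays compared. It was 1440 without dim genes, 79 after quantile normalization, 957 without the intensity trend and 39 with array weights. Median centring gave 1020 calls, 17.4% of them higher against 35.1%, and moved the median of all genes from 0.09 to -0.07. The replicate block, with numbers that did not pair the mice, gave 714. Leaving out 1 array gave 0 to 5702 calls; the lone mouse of a group is then assumed to vary like the others. The interaction count of 1 was 0 with 16 arrays or array weights, 2 with 13 arrays, 2 without dim genes, 2 with the replicate block, and 0 to 1034 without 1 array. The knockout count of 0 was 0 to 179 without 1 array. Of 78 named genes that passed, 36 passed with all 16 arrays, 77 with 13, 17 after quantile normalization, 74 after median centring, 76 with the replicate block and 0 with the 4 arrays compared, and no named gene changed direction under these settings. Differences changed sign for genes whose mice disagreed: Nphs1 gave -0.094 to 1.07, Cxcl13 -0.96 to 3.24 and Fgg -1.62 to 2.70 when 1 array was left out. The cause of these moves was not tested. The number of arrays, 2 per group, limits precision.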

Other observations

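Of the 215 genes called higher at 2 weeks, 130 carry symbols that were counted and not named, and a large share of these belongs to a pair of repeated families. Numbered predicted genes that neighbour each other on mouse chromosome 14, between Gm6482 and Gm8267 in the RefSeq order, supplied 37 of the 215, and copies of the microRNA gene Mir669 supplied 14. Of 50 measured genes of the first family 37 rose and 1 fell, and the median difference was 1.27. The family mean was 6.04 and 6.18 untreated, 6.12 and 6.25 at 6 days and 7.56 and 7.46 at 2 weeks, so the 2-week arrays stood apart from the other 4. In the knockout its median was 0.56 on 2-week replicate 1 and 0.83 on replicate 2, both above 0. All 215 called rises together had a median of 0.07 on replicate 1, with 52.1% above 0. Of 30 Mir669 copies 14 rose and none fell, with means of 7.81 and 7.90 at 6 days and 9.22 and 8.44 at 2 weeks. Mir669a-4 to Mir669a-12 had the same value on every array, so their calls repeat a single measurement, and the counts of 14 and 215 include these repeats. Other copies of each family are near-identical in name and may share probe sequence, so their calls may not be separate measurements. Which copies were transcribed cannot be read from these arrays. Both families were singled out after their values were seen.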
